A study of Rattus norvegicus with 7 samples.

Results

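Gene expression in rat testis was compared between 20 h and 8 h after cadmium chloride, to follow the response from the earlier to the later time. The comparison takes the 4 cadmium arrays of the 7 in the series, 2 titled as 20 h and 2 titled as 8 h, and each array is described by the labels as a biological replicate, read here as 1 animal. The animals were adult male Sprague-Dawley rats, an outbred stock. The cadmium groups had received 1 intraperitoneal dose of 3 mg/kg. The 3 arrays of untreated testis, for which the labels name no vehicle injection, served to estimate the spread between arrays and as background values. Whole testis was measured, so a lower signal of a gene made by 1 cell type could come from fewer such cells or from less RNA in each, and these cannot be told apart.

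Cadmium is a metal that damages the testis at doses that most other organs tolerate. The known course involves the small blood vessels between the seminiferous tubules, the Leydig cells that lie beside those vessels and make testosterone, and the junctions between Sertoli cells that form the blood-testis barrier. Cells answer cadmium with metallothioneins that bind the metal, with heat shock proteins, and with antioxidant genes under the transcription factor Nrf2. Loss of blood supply adds a low-oxygen response and, in time, inflammation.

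The tissue label was borne out by its markers on all arrays: the lowest signal of the spermatid protamine gene Prm1 was 16767.1, that of the Leydig gene Insl3 was 1126.7, and that of the Sertoli claudin Cldn11 was 2644.8. The neutrophil markers S100a8, S100a9 and Csf3r reached at most 18.6, 30.5 and 25.7 on any array, and Defb1, the measured epididymis marker, had at most 23.2. All arrays had been scaled to a trimmed mean of 250.1, and their median signal ran from 52.9 to 72.0. Both 8 h arrays and 20 h replicate 2 were hybridized on day 3 together with untreated replicate 3, whereas 20 h replicate 1 was hybridized on day 1 with untreated replicate 1. The first principal component (39.5% of the variance) placed 20 h replicate 1 at -34.3 and the other cadmium arrays between 19.3 and 30.2. Untreated replicates 1 and 2, of days 1 and 2, lay at -39.7 and -32.9 and untreated replicate 3 at 31.1, so this component parted the arrays by hybridization day. The second (15.1%) placed 20 h replicate 1 at -33.2, the other cadmium arrays between -9 and -7.8 and the untreated arrays between 9.5 and 25.8. On 20 h replicate 1 the log2 ratio of 3' to 5' actin signal, which rises as RNA breaks, was 0.917. It was 1.363 on 20 h replicate 2 and 1.422 and 1.39 on the 8 h arrays. Untreated replicates 1, 2 and 3 had 0.985, 0.733 and 1.191. The Gapdh ratio did not set 20 h replicate 1 apart, at -0.203 beside -0.13 on 20 h replicate 2 and -0.342 and -0.099 at 8 h. Since 20 h replicate 1 lay apart on both components, the values of the 20 h arrays are given singly for the lists and for nearly all genes described.

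Between 8 h and 20 h no gene could be called. Of 20857 probe sets tested, 0 passed limma's adjusted p of 0.05 (0%), with 0.9999 as the lowest value. Counted without adjustment (limma's p under 0.05), there were 401 probe sets, where 1043 would arise with no difference at all: 255 were higher at 20 h (1.22%) and 146 lower (0.7%). Both 20 h arrays lay above both 8 h arrays for 3160 probe sets (15.2%) and below them for 2748 (13.2%). Once the hybridization day entered the fit as a block, limma again passed 0 probe sets and gave 223 higher and 433 lower at the unadjusted level. Single values were not tested one by one, because an exact permutation test of 2 arrays against 2 cannot go below 0.333. Every log2 difference below is the mean of log2(signal + 15) at 20 h minus that at 8 h, with limma's standard error, and none had an adjusted p under 0.9999.

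The 20 h arrays were unlike each other. Limma's spread also took in the untreated arrays, which the first principal component parted by hybridization day. What the lack of calls came from was not tested. In 70.9% of probe sets the 20 h arrays differed more from each other than the group means differed, and in 56.0% the 8 h arrays did. Among probe sets with a signal of 200 or more on either array, 303 were at least 2-fold higher and 89 at least 2-fold lower on 20 h replicate 1 than on 20 h replicate 2. Against the 8 h arrays, 20 h replicate 1 was 2-fold higher in 246 and 280 probe sets and lower in 69 and 77. By contrast, 20 h replicate 2 differed 2-fold from 8 h replicate 2 in 3 probe sets upward and 5 downward, and from 8 h replicate 1 in 31 and 39. That is fewer than, or close to, the 33 and 31 by which the 8 h arrays differed from each other. The 20 h array hybridized beside the 8 h arrays was thus close to 8 h replicate 2 in bright genes, and the larger differences belong to 20 h replicate 1, where animal and hybridization day cannot be told apart.

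**Figure D1:**
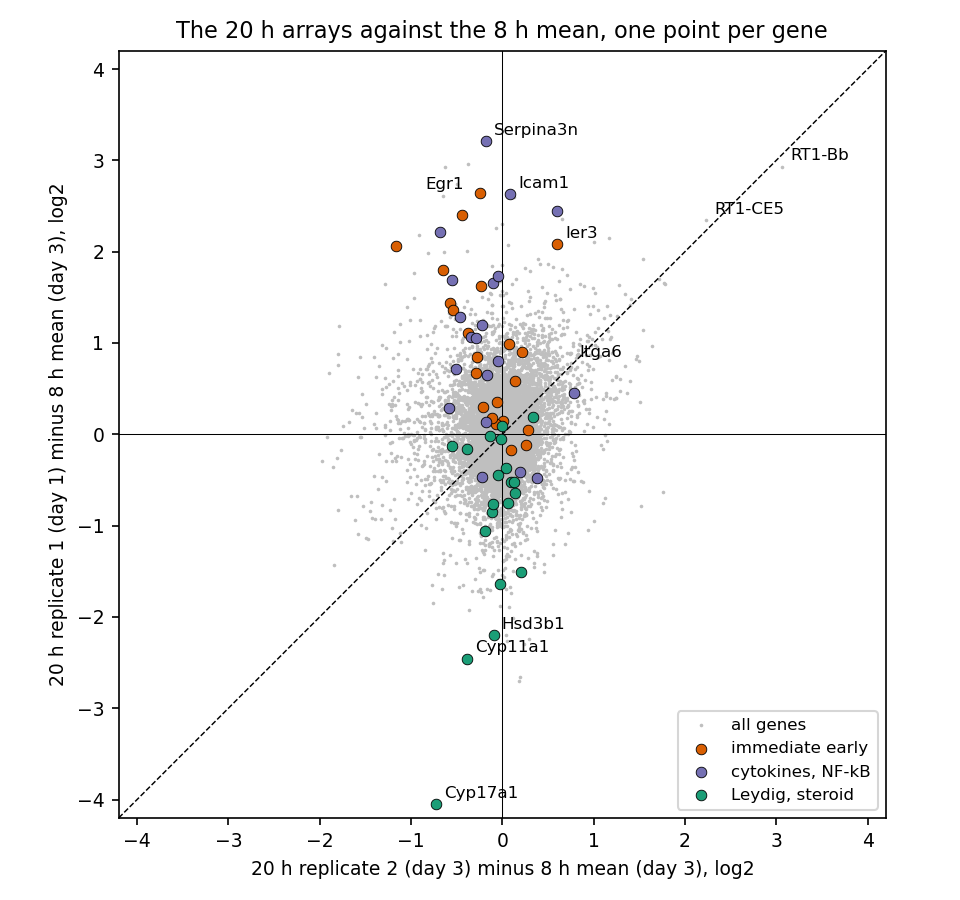
Log2 difference from the 8 h mean on 20 h replicate 2 (horizontal) and on 20 h replicate 1 (vertical), 1 grey point for each of 11552 genes, with members of 3 gene lists in colour; the dashed line marks equal differences. Points spread mainly along the vertical axis, with Egr1 and Serpina3n high and Cyp17a1 low on 20 h replicate 1. On 20 h replicate 2 these genes lie at -0.25, -0.18 and -0.73.

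Of 26 gene lists, the largest medians of the log2 difference were those of chemokines, cytokines and NF-kB targets at 0.40, immediate early genes at 0.36, Leydig cell and steroid synthesis genes at -0.31 and hypoxia and glycolysis genes at 0.27, beside -0.01 for all 11552 genes. In each of the 4 lists it was 20 h replicate 1 that lay farther from the 8 h mean. On 20 h replicate 1 their medians against the 8 h mean were 1.06, 0.87, -0.58 and 0.60, and on 20 h replicate 2 they were -0.18, -0.17, -0.04 and -0.01. The day-blocked medians were 0.09, 0.08, -0.13 and 0.06. Against the untreated array of its own day, 20 h replicate 1 had medians of 0.80, 0.54, -0.27 and 0.53, and 20 h replicate 2 had -0.38, -0.05, 0.07 and -0.04. Between the untreated arrays of these days (replicate 1 minus replicate 3) the medians were -0.03, 0.27, -0.36 and -0.15. Against the untreated array of the same day, 20 h replicate 1 was thus higher in the first, second and last list and lower in the Leydig list. Without cadmium, day 1 was also higher than day 3 in the immediate early list and lower in the Leydig list. What the day contributed to each list was not tested. Lists of other kinds stayed closer to all genes: heat shock proteins and chaperones had -0.06 (-0.03 on 20 h replicate 1 and -0.11 on 20 h replicate 2), endothelial markers 0.08 (-0.04 and 0.07), junctions of the blood-testis barrier 0.00 (0.06 and 0.07) and macrophage markers -0.03 (-0.03 and -0.20).

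**Figure D2:**
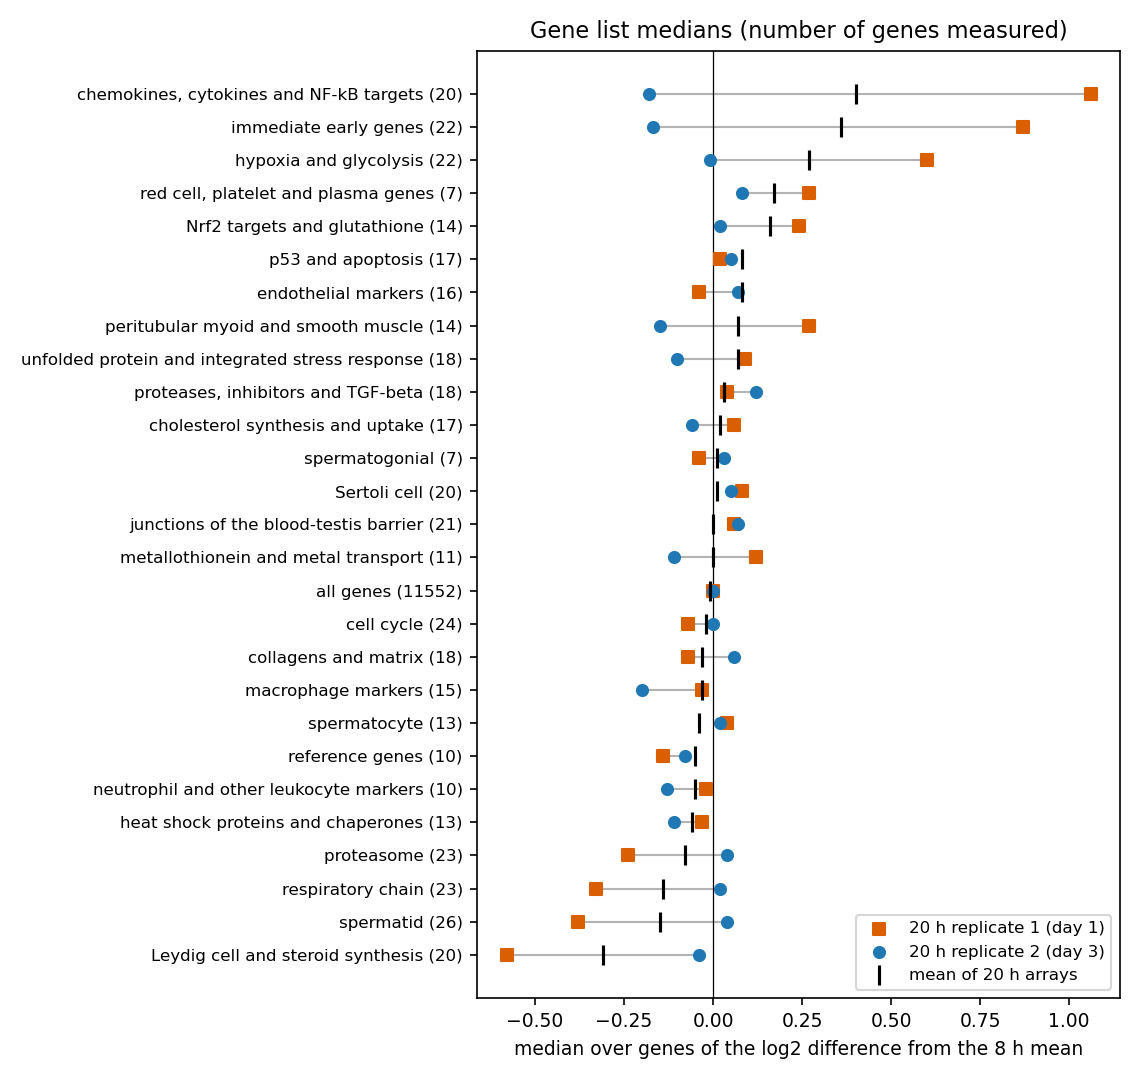
Median log2 difference from the 8 h mean over the measured genes of each list, on 20 h replicate 1 (square), on 20 h replicate 2 (circle) and for the mean of both (bar), with the number of genes in brackets. The squares run from -0.58 for Leydig and steroid genes to 1.06 for chemokines, cytokines and NF-kB targets, while the circles stay between -0.20 and 0.12.

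Genes of Leydig cells and steroid synthesis had a lower mean at 20 h in 18 of 20 measured members. In 5 of them (25.0%) both 20 h arrays lay below both 8 h arrays, beside 14.4% of all genes. These 5 were Cyp17a1, Cyp11a1, Hsd3b1, Hsd11b1 and Idh1. Their nearest 8 h and 20 h arrays were at most 0.03 apart in log2, and the nearer 20 h array was replicate 2 each time. Cyp17a1, which turns progestins into androgen precursors, gave 3852.3 and 1415.6 at 8 h and 127.4 and 1403.4 at 20 h, a log2 difference of -2.39 ± 0.88 (SE). The untreated arrays gave 1116, 2239.5 and 2046.2 for Cyp17a1. On 20 h replicate 1 this gene had the lowest signal of the 7 arrays, and on 20 h replicate 2 it matched 8 h replicate 2. Cyp11a1, the side-chain cleavage enzyme that starts steroid synthesis from cholesterol, gave 1630.3 and 984.4 at 8 h and 218.7 and 964.9 at 20 h (-1.42 ± 0.53, SE). Hsd3b1, which makes progesterone from pregnenolone, gave 2120.3 and 1872 at 8 h and 423.2 and 1862.7 at 20 h (-1.15 ± 0.50, SE). Star, which carries cholesterol into the mitochondrion for the first step, gave 966.5 and 462.1 at 8 h and 312.9 and 584.9 at 20 h (-0.63 ± 0.42, SE). For these 4 genes, which act one after another in the same pathway, the 8 h arrays also differed, with 8 h replicate 1 above 8 h replicate 2 each time. Lhcgr, the receptor for luteinizing hormone, gave 439.1 and 319.3 at 8 h and 201 and 345 at 20 h (-0.48 ± 0.27, SE).

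Among the cadmium arrays, 20 h replicate 1 was also the lowest for Insl3, Prlr and Nr5a1, but not for Fdx1. Insl3, a peptide hormone of Leydig cells, gave 1975.4 and 2036.1 at 8 h and 1185.6 and 2099.6 at 20 h (-0.34 ± 0.28, SE). The untreated arrays of days 1 and 2 gave 1356.9 and 1126.7 for Insl3 and that of day 3 gave 1827.8, so this gene followed the hybridization day. Prlr, the prolactin receptor, gave 268.3 and 195 at 8 h and 63 and 223.8 at 20 h (-0.84 ± 0.49, SE). Nr5a1, the transcription factor of steroid-making cells, gave 142.1 and 153.6 at 8 h and 98.6 and 158.3 at 20 h (-0.21 ± 0.29, SE). Fdx1, the ferredoxin that passes electrons to Cyp11a1, gave 2941.4 and 1874.4 at 8 h and 2093.3 and 1790.2 at 20 h (-0.28 ± 0.24, SE). Unlike the enzymes it serves, Fdx1 on 20 h replicate 1 lay between the 8 h arrays. In all, 11 of the 20 members had their lowest signal of the 7 arrays on 20 h replicate 1, 4 of them at least 2-fold below every other array. Among all genes 17.2% had their lowest signal there, and 40 of the 11552 were at least 2-fold below every other array. On 8 h replicate 1, 10 of the 20 members (50%) had their highest signal of the 7 arrays, beside 11% of all genes. The lower mean of the list at 20 h thus rested on this array as well. Left without 20 h replicate 2, limma passed 1 probe set, that of Hsd3b1 (-2.20, adjusted p = 0.0246), where the spread of a single 20 h array had to be borrowed from the other groups.

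**Figure D3:**
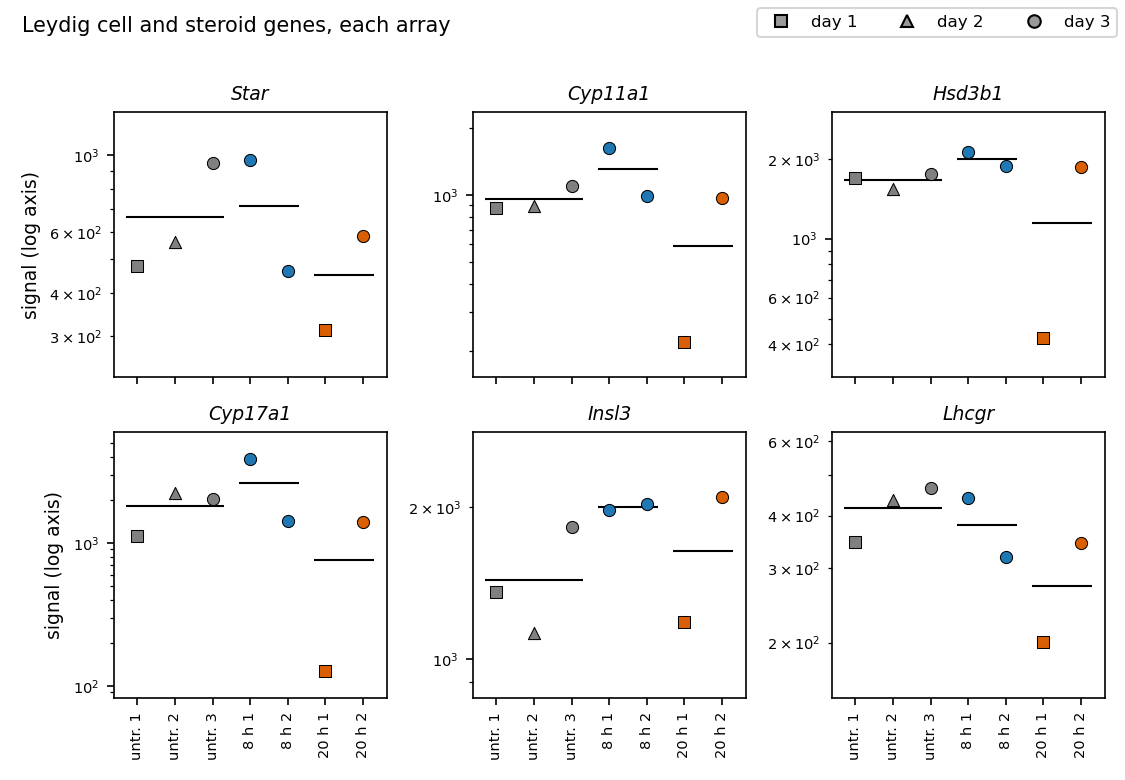
Signal of 6 Leydig cell and steroid genes on each array (log axis), in grey for untreated, blue for 8 h and orange for 20 h, with the symbol giving the hybridization day and the bar the group mean. Star, Cyp11a1, Hsd3b1, Cyp17a1 and Lhcgr have their lowest signal on 20 h replicate 1, and 20 h replicate 2 lies within or near the 8 h pair for each gene.

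Immediate early genes, which are transcribed within minutes of a stimulus and need no new protein, had a higher mean at 20 h in 21 of 22 measured members. Both 20 h arrays lay above both 8 h arrays in 2 of them (9.1%), beside 13.7% of all genes. Egr1, a zinc-finger transcription factor, gave 208.1 and 58.2 at 8 h and 783.9 and 92.7 at 20 h, a log2 difference of 1.20 ± 0.80 (SE). Jun, a subunit of the factor AP-1, gave 165.1 and 105.6 at 8 h and 439.7 and 110 at 20 h (0.69 ± 0.50, SE), although another of its probe sets had -0.01. Junb, another AP-1 subunit, gave 91.2 and 53.6 at 8 h and 340.6 and 23 at 20 h (0.45 ± 0.80, SE). In these 3 genes the first replicate was the higher at both times, and the 8 h and 20 h values of the second replicates lay near, within or below the untreated range. The untreated arrays gave 65.1, 67.1 and 106.3 for Egr1, 157.2, 143.5 and 117.5 for Jun and 74.6, 91.2 and 66.1 for Junb. Over the list, 12 of 22 members (54.5%) had both first replicates above both second replicates, as did 21.1% of all genes. In 14 of them (63.6%) the highest signal of the 7 arrays was on 20 h replicate 1, as it was in 13.7% of all genes.

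Ier3, a stress-inducible gene that acts on cell survival, was the member whose groups were farthest apart. It gave 85 and 114.5 at 8 h and 465.8 and 156.8 at 20 h (1.34 ± 0.43, SE), with 77.4, 55.9 and 87.4 in untreated testis. Both 20 h arrays lay above the other 5 arrays, though 20 h replicate 2 exceeded 8 h replicate 2 by much less than 20 h replicate 1 did. Across the 19 alternative settings the difference of Ier3 ran from 0.59 to 2.08. Leaving out an array could not turn its sign, because its groups did not overlap. Zfp36, whose protein speeds the decay of cytokine mRNAs, gave 148.4 and 75.1 at 8 h and 625.6 and 74.1 at 20 h (0.98 ± 0.75, SE), so its second replicates were the same at both times. Fos, the partner of Jun, was dim, at 45.3 and 22.3 at 8 h and 150.2 and 15.3 at 20 h (0.58 ± 0.74, SE). Dusp6, a phosphatase that switches off ERK, was the member with a lower mean, with 143.4 and 216.8 at 8 h and 155.7 and 189.3 at 20 h (-0.04 ± 0.23, SE).

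Chemokines, cytokines and NF-kB targets had a higher mean at 20 h in 15 of 20 measured members, and 11 of the 20 (55%) were at least 2-fold above the 8 h mean on 20 h replicate 1, as were 2.56% of all genes. On 20 h replicate 2 the number was 0, beside 0.554% of all genes. Serpina3n, an acute-phase inhibitor of proteases, gave 39.7 and 21.4 at 8 h and 398.1 and 24.3 at 20 h (1.51 ± 0.87, SE), with 14.2, 21.5 and 35 in untreated testis. The other 6 arrays were thus all dim. Icam1, the adhesion molecule that leukocytes grip on endothelium, gave 77.2 and 16.6 at 8 h and 318.5 and 42.2 at 20 h (1.36 ± 0.76, SE). Il33, an alarm cytokine held in nuclei, gave 60.4 and 48.8 at 8 h and 307.3 and 28.2 at 20 h (0.77 ± 0.74, SE). Tnfaip3, a brake on NF-kB, gave 43.1 and 67 at 8 h and 214.4 and 52 at 20 h (0.84 ± 0.50, SE). In these genes 20 h replicate 1 was the highest of the 7 arrays, and 20 h replicate 2 lay within the range of the 8 h and untreated arrays.

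Socs3, an inhibitor of cytokine signalling, was 1 of 2 members of this list (10%) with both 20 h arrays above both 8 h arrays, beside 13.7% of all genes. It gave 7.5 and 24.7 at 8 h and 148.2 and 30.3 at 20 h (1.52 ± 0.59, SE), and untreated testis gave 48.1, 30.4 and 57.4. The 8 h arrays were thus below the untreated ones and 20 h replicate 2 was near the lowest of them. Timp1, an inhibitor of matrix proteases, gave 584.2 and 688.9 at 8 h and 1113.9 and 611.5 at 20 h (0.37 ± 0.34, SE). Vcam1, an endothelial adhesion molecule, went the other way, with 380.2 and 347.5 at 8 h and 257.7 and 310.1 at 20 h (-0.35 ± 0.26, SE), and was the member with both 20 h arrays below both 8 h arrays. The cytokine genes Ccl2, Cxcl1, Cxcl2, Il1b, Il6 and Tnf did not pass the filter on low signals. That filter requires at least 2 arrays, so it would also drop a gene that was high on 20 h replicate 1 alone. Whether these genes were low on every array was not tested.

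Hypoxia and glycolysis genes had a higher mean at 20 h in 14 of 22 measured members. On 20 h replicate 1, 5 of the 22 (22.7%) were at least 2-fold above the 8 h mean, as were 2.56% of all genes. A core motif of hypoxia-inducible factor is ACGTG, and other forms were not searched. The windows of 250 bases before the annotated start of 2 members are shown. These genes held the motif, and both were highest on 20 h replicate 1. They are from RefSeq on build GRCr8 in the direction of the gene, with the motif on either strand in capitals; in Bnip3 the matches on both strands overlap in a palindrome. Bnip3 lies on the minus strand at chr1:203154963-203155212, and Slc2a1 on the plus strand at chr5:138002272-138002521.
Bnip3: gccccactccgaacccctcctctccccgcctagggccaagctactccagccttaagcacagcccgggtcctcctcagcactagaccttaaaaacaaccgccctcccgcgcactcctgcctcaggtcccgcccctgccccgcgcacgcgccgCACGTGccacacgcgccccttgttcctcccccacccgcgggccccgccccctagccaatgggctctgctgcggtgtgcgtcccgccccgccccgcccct
Slc2a1: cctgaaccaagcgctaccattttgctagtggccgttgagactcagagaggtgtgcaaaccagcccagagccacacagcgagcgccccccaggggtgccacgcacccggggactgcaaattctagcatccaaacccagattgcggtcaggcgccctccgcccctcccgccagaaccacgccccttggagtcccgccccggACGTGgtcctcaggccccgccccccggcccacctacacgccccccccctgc

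Counting a gene when any of its windows held the motif, 8 of the 19 hypoxia genes with an entry did. Counted window by window, 16.6% of all 33469 promoter windows of the same length held it, so the shares are not directly comparable. A match is a description of the letters and not a site. Bnip3, a receptor that targets mitochondria for autophagy, gave 281 and 166.9 at 8 h and 1400.3 and 133.4 at 20 h (0.98 ± 0.78, SE). Slc2a1, the glucose transporter of most cells, gave 153 and 139 at 8 h and 283.6 and 161.7 at 20 h (0.51 ± 0.28, SE), and was 1 of 3 members (13.6%) whose 20 h arrays both lay above both 8 h arrays, beside 13.7% of all genes. Adm, a peptide that widens vessels, gave 43.3 and 17.4 at 8 h and 322.3 and 18.4 at 20 h (1.29 ± 0.88, SE). Vegfa, the growth factor of vessels, gave 111.4 and 32.9 at 8 h and 578.8 and 35.5 at 20 h (1.15 ± 0.94, SE). The windows of Adm and Vegfa did not hold those letters, and those of Aldoa and Ldha, described next, did. Sequence beyond the 250 bases was not searched. For Bnip3, Adm and Vegfa, 20 h replicate 2 stood beside 8 h replicate 2, and 8 h replicate 1 was higher than both.

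The bright glycolysis enzymes Aldoa and Ldha did not share that pattern. Aldoa, fructose-bisphosphate aldolase, gave 4201.2 and 4170.6 at 8 h and 4336.5 and 4230.5 at 20 h (0.03 ± 0.14, SE). Ldha, a lactate dehydrogenase subunit, gave 8837.2 and 7771.6 at 8 h and 6595.4 and 8281.2 at 20 h (-0.16 ± 0.19, SE). For both, the group means differed by less than the 20 h arrays did from each other. Pgk1, a less bright enzyme of glycolysis, did share the pattern, with 710.4 and 385.8 at 8 h and 1024.2 and 391.9 at 20 h (0.27 ± 0.41, SE). Hk2, the hexokinase induced by low oxygen, gave 88.2 and 43.9 at 8 h and 199.8 and 44.8 at 20 h (0.54 ± 0.56, SE). Pdk1, which turns pyruvate away from mitochondria, gave 141.4 and 167.8 at 8 h and 281.4 and 141.7 at 20 h (0.35 ± 0.32, SE). Of the list, 13 of 22 members (59.1%) had their highest signal of the 7 arrays on 20 h replicate 1, beside 13.7% of all genes.

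**Figure D4:**
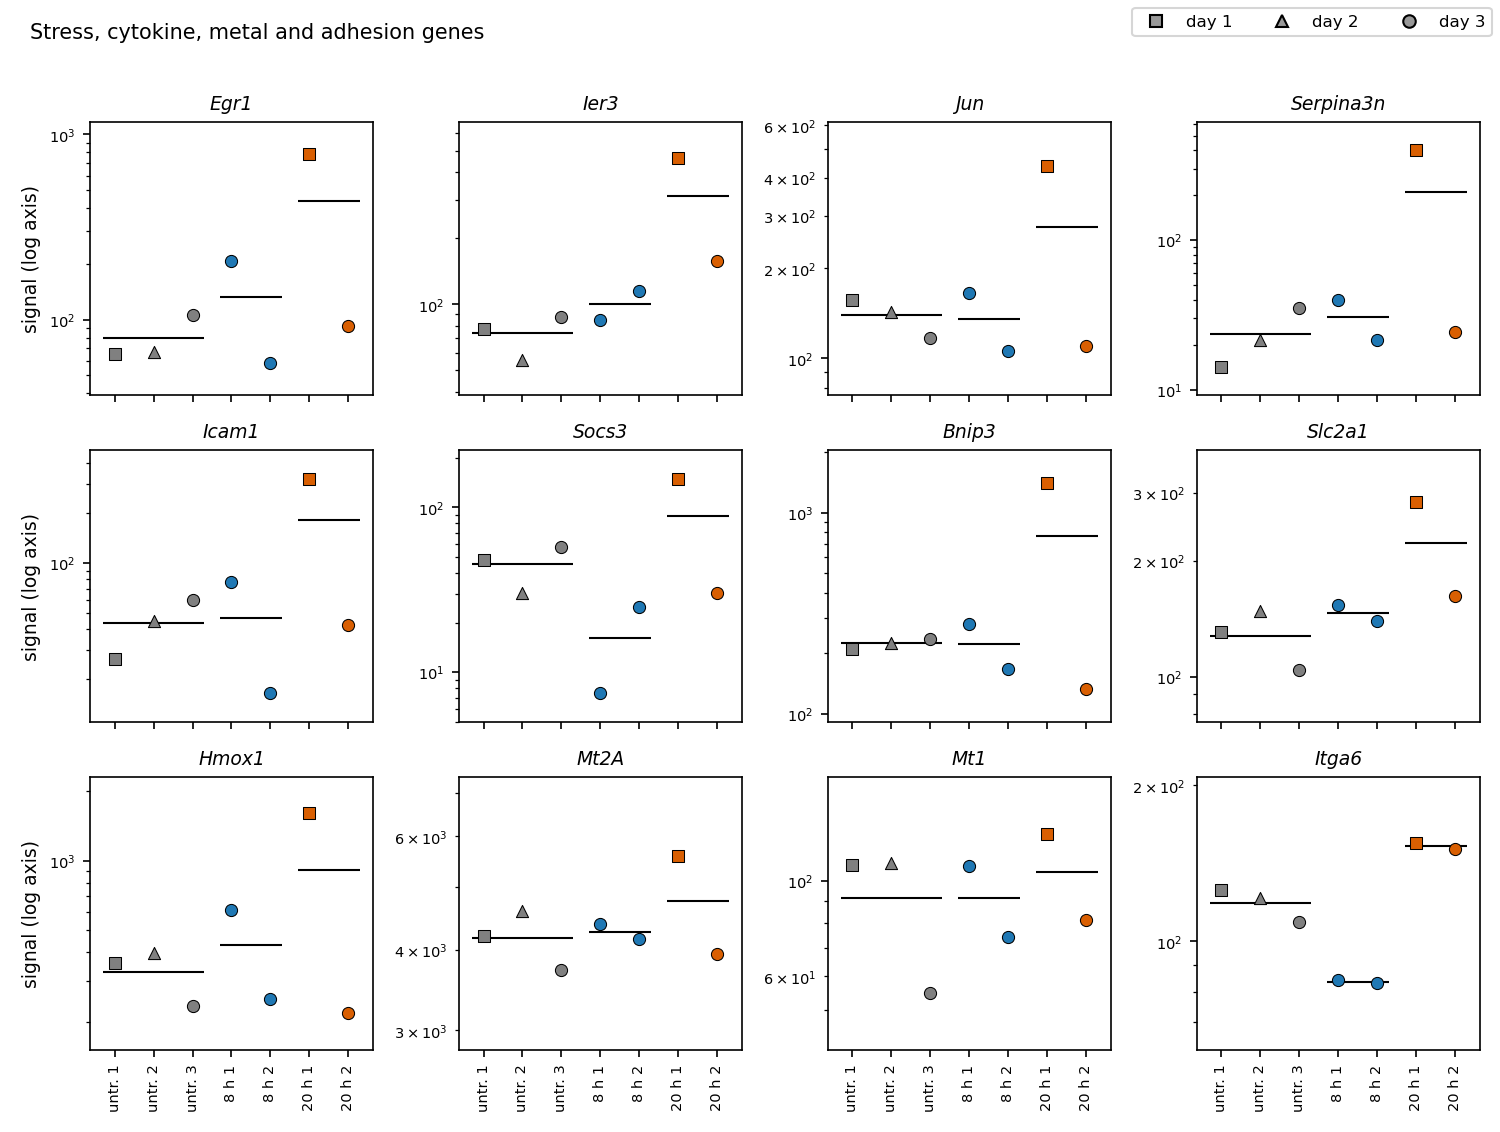
Signal of 12 genes of the stress, cytokine, hypoxia, metal and adhesion lists on each array (log axis), coloured by group with the symbol giving the hybridization day and bars for group means. In Ier3, Slc2a1 and Itga6 both 20 h arrays are above the other 5, and in the rest of the panels 20 h replicate 1 alone is.

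The metallothioneins differed between the times by less than the spread of the 20 h arrays. Mt2A, the abundant metallothionein, gave 4383.7 and 4160.4 at 8 h and 5589.3 and 3949 at 20 h (0.14 ± 0.19, SE), and 4204.8, 4593.2 and 3717.1 in untreated testis. Mt1, which is much dimmer on its own probe set, gave 108.4 and 74.1 at 8 h and 128.8 and 81.1 at 20 h (0.16 ± 0.36, SE). For both, the 20 h arrays enclosed or overlapped the 8 h arrays, and the sign turned in the day-blocked fit (-0.03 for Mt2A and -0.19 for Mt1). Slc39a8, the zinc importer through which cadmium can enter cells, gave 112.3 and 297.7 at 8 h and 90.6 and 237.7 at 20 h (-0.29 ± 0.47, SE). Its first replicates were the low ones at both times, and untreated testis gave 260.7, 312.7 and 222.2. The list of 11 measured genes had a median of 0.00, with 6 higher and 5 lower.

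Nrf2 targets and glutathione genes had a median of 0.16 (0.24 for the first 20 h array, 0.02 for the second), with 10 of 14 higher at 20 h. Both 20 h arrays lay above both 8 h arrays in 5 of them (35.7%, beside 13.7% of all genes), and the median stayed at or above 0.02 in all 19 alternative settings. Hmox1, heme oxygenase, gave 613.5 and 250.2 at 8 h and 1604.7 and 217.2 at 20 h (0.59 ± 0.74, SE). Slc7a11, the cystine importer, gave 671.4 and 190.5 at 8 h and 748.6 and 170.1 at 20 h (0.00 ± 0.66, SE). In both genes the first replicates were high and the second replicates low at each time, with untreated values of 358.5, 396 and 234.6 for Hmox1 and 194.8, 322.8 and 240.1 for Slc7a11. Srxn1, sulfiredoxin, gave 125.1 and 113 at 8 h and 207.8 and 140 at 20 h (0.47 ± 0.28, SE). Txnrd1, thioredoxin reductase, gave 255.4 and 273.2 at 8 h and 354.3 and 296.3 at 20 h (0.28 ± 0.18, SE). Nfe2l2, which encodes Nrf2 itself, gave 785.5 and 800.9 at 8 h and 959.7 and 859.7 at 20 h (0.19 ± 0.15, SE). These 3 were among the members without overlap, with 20 h replicate 1 the higher of the 20 h arrays in each, and the untreated arrays gave 207.4, 203.2 and 131.9 for Srxn1, all above its 8 h pair.

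Heat shock proteins and chaperones had a lower mean at 20 h in 9 of 13 members. Hspa1a, the inducible member of the Hsp70 family, gave 580.2 and 140.9 at 8 h and 284.1 and 148.6 at 20 h (-0.46 ± 0.52, SE), with 175.4, 160 and 201.4 in untreated testis. It was the first replicates that lay above the untreated range, at both times. Hsp90ab1, a constitutive Hsp90, gave 3270.5 and 3098 at 8 h and 2390.9 and 2682 at 20 h (-0.33 ± 0.20, SE), and was 1 of 3 members (23.1%) with both 20 h arrays below both 8 h arrays, beside 14.4% of all genes. The untreated values of Hsp90ab1 were 2399.8 and 2246.4 on days 1 and 2 and 3422.7 on day 3. Atf4, which drives transcription when translation is held back by stress, gave 539.8 and 509.3 at 8 h and 1115.9 and 449.8 at 20 h (0.43 ± 0.33, SE). Ddit3, its target that promotes cell death, gave 1037.3 and 1080.5 at 8 h and 1144.4 and 935.6 at 20 h (-0.03 ± 0.18, SE).

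Junction genes of the seminiferous epithelium as a list had a median of 0.00 between the times, with 12 of 21 higher and 9 lower. Cldn11, the claudin of the Sertoli cell barrier, gave 2874.8 and 3648.7 at 8 h and 2644.8 and 3551.1 at 20 h (-0.08 ± 0.19, SE). Ocln, occludin, gave 99.1 and 78.6 at 8 h and 118.1 and 82.5 at 20 h (0.14 ± 0.28, SE). Tjp1, the scaffold that ties both to actin, gave 929.3 and 889 at 8 h and 947.6 and 1023.3 at 20 h (0.11 ± 0.15, SE). Gja1, the gap junction protein connexin 43, gave 1490.5 and 1613 at 8 h and 832 and 1644.7 at 20 h (-0.40 ± 0.28, SE), although its other probe set had 0.12. Of these 4, Tjp1 had 20 h arrays above both 8 h arrays, and its untreated values of 912.6, 964 and 1055.7 covered all but the lower 8 h array. On the probe set given, Gja1 was low on 20 h replicate 1 alone.

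A laminin chain and its integrin receptor were the junction genes farthest apart. Itga6, the integrin chain that binds laminin, gave 84.1 and 83 at 8 h and 154.6 and 150.8 at 20 h (0.77 ± 0.22, SE). The untreated arrays gave 125.5, 121.1 and 109.1 for Itga6, so the 8 h pair lay below and the 20 h pair above all of them. On day 3 alone it was 0.75, since both 20 h arrays had nearly the same signal, and the day-blocked value was 0.71. Of the 3 other probe sets of Itga6, 2 had the same direction (0.64 and 0.79) and 1 had -0.15. Lama3, a laminin alpha chain, was dim, with 21.7 and 7.1 at 8 h and 55.9 and 40.3 at 20 h (1.14 ± 0.45, SE). Untreated testis gave 38.2, 18.4 and 32.8 for Lama3, so its 20 h arrays lay above all others. Lamb3, a beta chain that pairs with it, gave 354.4 and 225.6 at 8 h and 386.7 and 280.5 at 20 h (0.21 ± 0.30, SE), with overlap. Adamts4, a protease of matrix proteoglycans, gave 8.8 and 11.6 at 8 h and 114.1 and 24.6 at 20 h (1.51 ± 0.58, SE), the 8 h arrays lying below the untreated values of 39, 49.3 and 18.9. Bgn, the proteoglycan biglycan, gave 247.4 and 242.4 at 8 h and 173.2 and 190.6 at 20 h (-0.40 ± 0.19, SE), and the 20 h pair was below all untreated arrays, which gave 286.3, 231.3 and 277.8. Col1a1, a collagen I chain, gave 261.4 and 279.5 at 8 h and 268.4 and 205.4 at 20 h (-0.19 ± 0.39, SE), and its other probe set had 0.09.

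Endothelial markers did not separate the times, with 9 of 16 members higher and 7 lower at 20 h. Cldn5, the claudin of endothelium, gave 62.7 and 236.1 at 8 h and 52.5 and 252.9 at 20 h (-0.05 ± 0.63, SE), against 241.2, 241.4 and 231.9 in untreated testis. The low value was thus in the first replicate at each time, 1 of them hybridized on day 1 and 1 on day 3. Tek, the receptor of angiopoietins, gave 75.5 and 94.4 at 8 h and 20.5 and 81.6 at 20 h (-0.76 ± 0.42, SE). Vwf, von Willebrand factor, gave 47.7 and 40 at 8 h and 39.1 and 86.9 at 20 h (0.34 ± 0.35, SE). Erg, an endothelial transcription factor, was dim and lower on both 20 h arrays, with 54.1 and 33.5 at 8 h and 19.6 and 6.3 at 20 h (-1.09 ± 0.43, SE). In the list, 6 of 16 members (37.5%) had their lowest signal of the 7 arrays on 20 h replicate 1 and 3 (18.8%) on 20 h replicate 2, beside 17.2% and 13.9% of all genes. On 8 h replicate 1 there were 4 (25%, beside 12.6% of all genes).

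Of the neutrophil and other leukocyte markers, 10 of the 18 on the array were measured, and those named here were dim. In 4 of the 10 (40%) both 20 h arrays lay below both 8 h arrays, beside 14.4% of all genes, and the list's median was -0.05 (replicate 1 alone -0.02, replicate 2 alone -0.13). Ncf1, a subunit of the phagocyte oxidase, gave 41 and 43.5 at 8 h and 17.3 and 1.5 at 20 h (-1.31 ± 0.53, SE), with 34.5, 24.1 and 9.5 in untreated testis. Cd3d, a chain of the T cell receptor complex, gave 52.9 and 46.3 at 8 h and 9.2 and 34.2 at 20 h (-0.90 ± 0.44, SE), with 47.1, 31.7 and 27 in untreated testis. Both lay lower on each 20 h array than on either 8 h array. Of the red cell, platelet and plasma genes, 5 of 7 were higher at 20 h. Hbb, the beta globin, gave 1297.2 and 1887.4 at 8 h and 2954 and 1764.9 at 20 h (0.54 ± 0.32, SE), with 1038, 1958.1 and 1540.8 in untreated testis. Macrophage markers had a median of -0.03 and 6 of 15 higher. Cd163, a scavenger receptor for hemoglobin, gave 106.8 and 84.3 at 8 h and 137.3 and 77.2 at 20 h (0.11 ± 0.32, SE), and all 4 cadmium arrays exceeded the untreated values of 52.3, 37.4 and 42.2. Fgl2, a prothrombinase made by macrophages and endothelium, gave 367.7 and 309.7 at 8 h and 1252 and 310.7 at 20 h (0.87 ± 0.51, SE).

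Muscle-like cells around the tubules had mixed values. Des, the intermediate filament desmin, gave 41.9 and 56.1 at 8 h and 216.4 and 69.7 at 20 h (1.14 ± 0.45, SE), with 97.5, 57.1 and 89.4 in untreated testis. Actg2, a smooth muscle actin, gave 44 and 72.7 at 8 h and 205.3 and 82.2 at 20 h (1.02 ± 0.51, SE). Acta2, the alpha smooth muscle actin, gave 541.8 and 579.8 at 8 h and 587.4 and 503.5 at 20 h (-0.04 ± 0.23, SE). Of the 14 members, Des and Actg2 alone (14.3%) had both 20 h arrays above both 8 h arrays, beside 13.7% of all genes.

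Among germ cell markers, the spermatid list had lower medians on day 1 than on day 3, with cadmium (-0.35 for 20 h replicate 1 minus replicate 2) and without (-0.39 for untreated replicate 1 minus replicate 3). Spermatid genes had a lower mean at 20 h in 23 of 26 members with a median of -0.15, with -0.38 for 20 h replicate 1 and 0.04 for the other 20 h array. Prm1, a protamine of sperm chromatin, gave 28755.9 and 27237.7 at 8 h and 18075.1 and 28283.5 at 20 h (-0.31 ± 0.26, SE). The untreated arrays gave 20530.8, 16767.1 and 28324.4, in the order of days 1, 2 and 3, so the low 20 h value was at the level of the untreated array of its day. Over the list the median of 20 h replicate 1 minus untreated replicate 1 was 0.02. The other germ cell lists did not share this pattern. Spermatocyte genes had a median of -0.04, with -0.01 between the 20 h arrays and 0.25 between the untreated arrays taken in the same order. Spermatogonial genes had a median of 0.01, with 0.19 and 0.02. Respiratory chain genes were lower in 20 of 23 members (median -0.14) and proteasome genes in 17 of 23 (-0.08). Blocking on the day gave both a positive median, 0.03 and 0.07. Against the untreated array of day 1, 20 h replicate 1 had medians of -0.03 and 0.07 in these lists. Sertoli genes had 10 higher and 10 lower, and Inha, the inhibin alpha subunit, gave 580 and 549.3 at 8 h and 495.1 and 545.1 at 20 h (-0.12 ± 0.18, SE).

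The genes with the widest gap between the nearest 8 h and 20 h arrays, among those with a mean signal of 200 or more, had differences that were mostly smaller than those above, and present on both 20 h arrays by the way they were picked. Their differences are therefore a description. In the 12 higher at 20 h the gap ran from 0.35 to 0.47 on the log2 scale, and 20 h replicate 2 alone exceeded the 8 h mean of its own day by 0.36 to 0.67. Foxj1, the master factor of motile cilia, gave 446.6 and 431.8 at 8 h and 885.9 and 624.8 at 20 h (0.74 ± 0.26, SE). Its untreated values of 947.4, 709.4 and 529.6 all lay above the 8 h pair. Zfp157, a zinc-finger gene, gave 165.4 and 204 at 8 h and 414 and 273.3 at 20 h (0.82 ± 0.24, SE). Rbm45, an RNA-binding protein, gave 348.1 and 343.8 at 8 h and 619 and 487.4 at 20 h (0.64 ± 0.20, SE). Tagln2, an actin-binding protein, gave 158 and 209.3 at 8 h and 277.2 and 298.3 at 20 h (0.62 ± 0.22, SE), and here both 20 h arrays exceeded the untreated range of 189.6 to 260. Map3k4, a stress kinase upstream of p38, gave 144.3 and 172.9 at 8 h and 226.4 and 247.2 at 20 h (0.54 ± 0.20, SE). Edem2 and Arcn1, which act in disposal of misfolded glycoproteins and in the COPI vesicle coat, had 0.40 ± 0.16 and 0.46 ± 0.20 (SE). Edem2 gave 455.1 and 452.2 at 8 h and 621 and 586 at 20 h, and Arcn1 gave 696.2 and 669.6 at 8 h and 894 and 1000.6 at 20 h. The other 5 were Ier3, Pgpep1, Zfp638, Cox5a and Lin9.

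Among the 12 steadily lower genes the gap ran from 0.32 to 0.63. Raly, an RNA-binding protein of the hnRNP family, gave 342.3 and 339.8 at 8 h and 181 and 214.7 at 20 h (-0.75 ± 0.21, SE), with 265.7, 233.5 and 326.4 in untreated testis. Mrpl28, a protein of the mitochondrial ribosome, gave 774.1 and 695.9 at 8 h and 465 and 491 at 20 h (-0.60 ± 0.16, SE). Its untreated values were 496.9, 551.3 and 493.6, so the 8 h pair stood above all other arrays. Gcdh, a mitochondrial enzyme of lysine breakdown, gave 232.5 and 239.4 at 8 h and 159.6 and 156.3 at 20 h (-0.54 ± 0.23, SE). Plekhm1, an adaptor for lysosome fusion, gave 473.9 and 460.1 at 8 h and 351.4 and 344.4 at 20 h (-0.41 ± 0.16, SE), and 368.4, 333.4 and 342 without cadmium. Pigs, a subunit of the complex that attaches proteins to membrane anchors, gave 341.1 and 370.4 at 8 h and 265.1 and 260.5 at 20 h (-0.42 ± 0.18, SE). Aamdc, Zc3h18, Grcc10, Marveld1, Atpsckmt, Ankrd46 and Bgn completed the group. The 8 h pair lay outside the untreated range in 8 of the 12 higher and 7 of the 12 lower genes, and the 20 h pair in 3 and 8. Among all genes whose 20 h arrays lay above or below the 8 h arrays, the 8 h pair was outside the untreated range in 38.3% and 29%, and the 20 h pair in 19% and 28.2%.

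**Figure D5:**
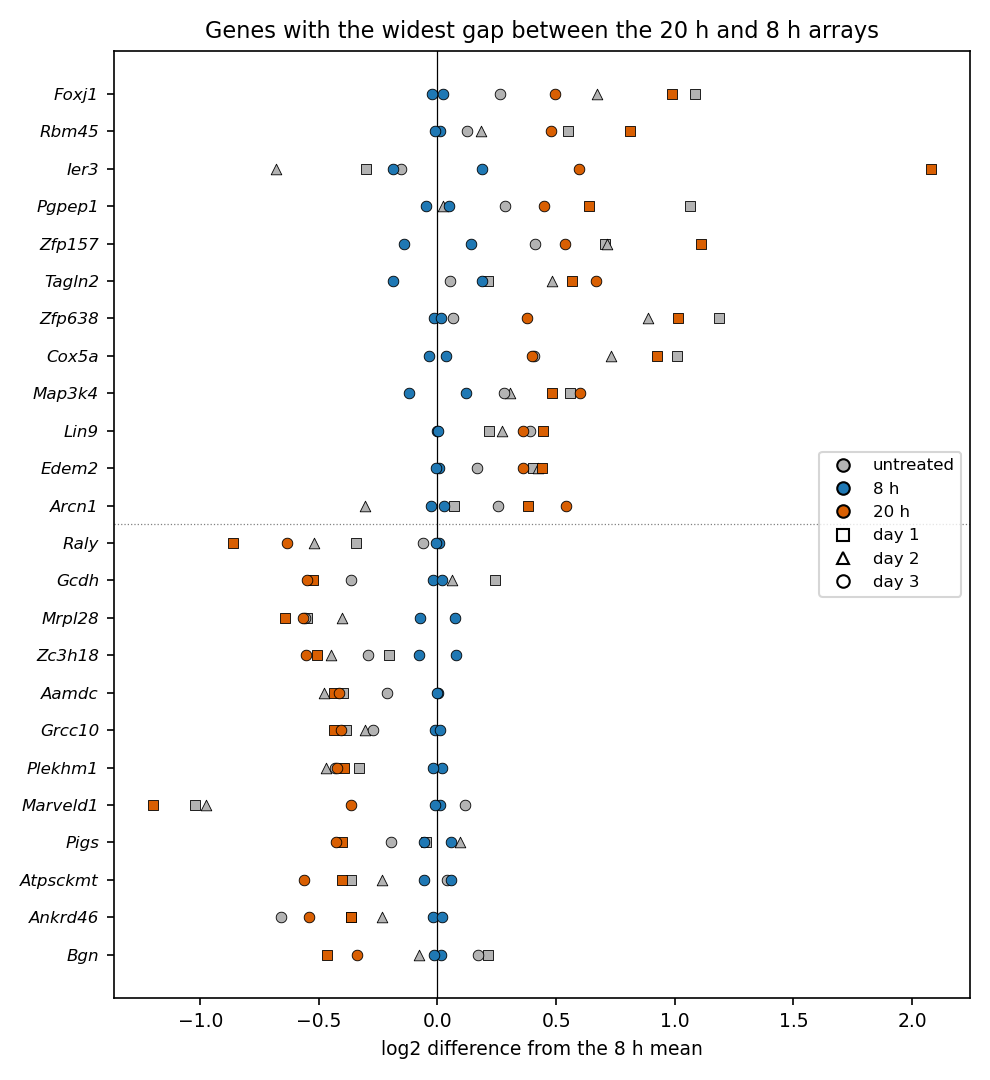
Log2 difference of each array from the 8 h mean for the 12 genes higher (top) and the 12 lower (bottom) at 20 h with the widest gap between the groups, in grey for untreated, blue for 8 h and orange for 20 h, with symbols for the hybridization day. In the lower group Mrpl28, Aamdc, Grcc10 and Plekhm1 have the 8 h pair alone on the right, with 20 h and untreated arrays together on the left.

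The largest mean differences otherwise rested on 1 array. RT1-Bb and RT1-CE5, class II and class I genes of the rat major histocompatibility complex, had 2.99 ± 1.66 and 2.29 ± 1.10 (SE), because 8 h replicate 1 gave 3.1 and 2.5 for them. On the other cadmium arrays RT1-Bb ran from 1210.1 to 1412.5 and RT1-CE5 from 380.2 to 412.9. A second probe set of RT1-Bb had -3.04, the opposite direction, and untreated replicate 3 gave 86.9 where the other untreated arrays gave 881.3 and 707.4. Genes of this complex have near-identical copies, and these values are given as uncertain. Ugdh, which makes the sugar acid used in matrix and conjugation, gave 111.5 and 89.6 at 8 h and 679.9 and 110.8 at 20 h (1.36 ± 0.62, SE). Slc27a2, a fatty acid transporter, gave 825.8 and 1075.9 at 8 h and 136.2 and 1079.3 at 20 h (-1.24 ± 0.87, SE), with 369.6, 67.7 and 91.1 in untreated testis. In Slc27a2 the 3 cadmium arrays of day 3 were thus above every untreated array, that of day 3 included. Hao2, a peroxisomal oxidase, gave 3348.2 and 3430.5 at 8 h and 694.6 and 3500.8 at 20 h (-1.11 ± 0.57, SE). For Ugdh and Hao2, 20 h replicate 2 had nearly the signal of the 8 h arrays.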

How the data were processed

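Total RNA of whole rat testis had been hybridized to 7 Affymetrix arrays, 1 per animal. Each probe set has a deposited signal intensity from MAS 5.0, as the series' design text and the submitters' processing notes name it; the design text also names GeneSpring 7.2. The deposited instrument files hold other information per the file headers (array type, hybridization day, fluidics) and no measurements. Signals were log2-transformed after 15 (the 20th percentile of the whole table) had been added. Of 31099 probe sets, 57 were controls, 20826 named 1 gene, 436 several and 9780 none, through GEO's platform annotation. The filter kept probe sets that exceeded the 40th percentile of their own array on 2 arrays or more (20857, for 11552 genes with 1 probe set each, the one with the highest mean). The probe sets come with no genome build.

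limma 3.58.1 (R 4.3.3) was used to fit the 3 groups, with moderated variances that follow the intensity (eBayes; 4 residual and 5.48 prior degrees of freedom), and the 20 h minus 8 h contrast was adjusted by Benjamini-Hochberg over all kept probe sets. The fit was tested on simulated data with independent noise for each array. These data held no effect of hybridization day, so the check does not cover that part of the spread. A gap is the lowest array of the higher group minus the highest of the lower, in log2. Named are genes past the threshold, the 12 with the widest gap and the 8 with the largest mean difference in each direction (mean signal 200 or more in the higher group), key members of 26 lists, and up to 2 further members in each direction by gap; other members named as examples in the text (such as Fdx1, Tnfaip3, Fgl2 and Slc39a8) were picked with their values in view. The comparison, members and lists were chosen with earlier results of these data known. Alternatives changed the pseudocount, filter, normalization, trend, arrays, day block and replicate block. The number of arrays limits the precision.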

Additional observations from a re-analysis of the deposited data

How the results depend on the processing

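The count of probe sets past limma's adjusted p of 0.05 was 0 in every alternative that kept all 4 cadmium arrays. It ran from 0 to 1 when each array was left out in turn: without 8 h replicate 2, 1 probe set with no single gene name passed (adjusted p = 3.59e-05), and without 20 h replicate 2 that of Hsd3b1 did. At an unadjusted p under 0.05, limma gave 401 probe sets in the reported fit. It gave 910 with no filter, 152 with the filter at the 60th percentile, 656 with the day as a block, 653 on the day 3 arrays alone and 830 under the replicate block. It ran from 276 (without 8 h replicate 1) to 1564 (without 20 h replicate 2) when 1 array was left out, and was 614 without untreated replicate 3. Probe sets whose groups did not overlap numbered 5908, and 9127 with no filter, 3672 with the filter at the 60th percentile, 13551 on day 3 alone, and between 5908 and 16165 (without 20 h replicate 2) when 1 array was left out. The split was 3160 higher and 2748 lower, but 2920 and 3092 under quantile normalization and 2699 and 3129 under scaling to one 75th percentile. The labels give no pairing of arrays by replicate number, so none was used in the reported fit. Deviations of replicate 1 from replicate 2 correlated at -0.02 (untreated and 8 h), 0.08 (untreated and 20 h) and 0.17 (8 h and 20 h). The replicate block passed 0 probe sets. Patterns that the first replicates shared at both times are a description. Of the 26 list medians, 20 changed sign in at least 1 of 19 alternatives, and 11 did on day 3 alone. Of the 144 named genes 47 changed sign in at least 1 alternative. A value of 0.00 in the reported fit could not count as changed. With that value, the metallothionein list ran from -0.11 to 0.12, the junction list from -0.04 to 0.08 and Slc7a11 from -1.02 to 1.02. The medians of immediate early, hypoxia and cytokine lists were -0.17, -0.01 and -0.18 without 20 h replicate 1, and 0.87, 0.60 and 1.06 without 20 h replicate 2; the Leydig list had -0.04 and -0.58. The cause was not tested. Values near the added 15, such as those of Socs3, Lama3, Erg and Adamts4, are limited by background.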
